A study of Mus musculus with 10 samples.

Results

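The genes described here are 42 protein-coding genes of mouse chromosome 7 listed as neighbours of Klf13, beside 19048 genes that both deposited tables name. The list was given as chosen by position and not by change, but earlier results of these data were known when it was made. It leaves out 138 other genes, bright enough to be tested, that lie between its first and last member. Their RNA levels were compared between T cells that lack the transcription factor KLF13 and T cells of wild-type mice. The source was CD3+ spleen T cells of Balb/c mice, male and 12 weeks old. They were activated in culture with antibodies to CD3 and CD28 for 4 days, and their RNA was measured on Affymetrix arrays. There were 5 KLF13 knockout arrays (KO1 to KO5) and 5 wild-type arrays (WT1 to WT5), which the labels name as separate mice, and the antibodies and the culture were shared by both genotypes. The labels do not say which part of the Klf13 gene was removed or in which strain the allele was made, and the cells are a mixture of T cell types that was not sorted further. Replicates 1 to 3 of both genotypes form an exon-level table, with several probe sets per gene, and replicates 4 and 5 form a gene-level table.

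KLF13 is a Krüppel-like zinc-finger factor that binds GC-rich and CACCC elements of promoters, and in T cells it is known for driving the chemokine gene Ccl5 late after activation. Several of the genes closest to Klf13, among them Otud7a, Chrna7, Trpm1 and Mtmr10, have human counterparts that lie together with KLF13 in a stretch of chromosome 15 which is recurrently deleted in neurodevelopmental disorders. Ube3a and Snrpn belong to the neighbouring imprinted domain of the Prader-Willi and Angelman syndromes. In that domain some genes are read, in some cell types, from the copy of a single parent. Whether this holds in these T cells was not tested.

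The label of neighbours was checked in the RefSeq gene order of the GRCm38.p6 assembly, and it held for most but not all members. On that order 31 of the 42 members had between 0 and 24 protein-coding genes between themselves and Klf13. Otud7a had 0 such genes in between, Chrna7 had 1, Trpm1 had 2 and Mtmr10 had 3. The other 11 members, Gpatch1, Faap24, Cep89, Nudt19, Rgs9bp, Ankrd27, Dpy19l3, Zfp507, Tshz3, Uri1 and Pop4, lay on the same chromosome with 276 to 295 protein-coding genes in between. They are linked to Klf13 but are not its neighbours, and they are given separately below.

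Because KLF13 binds CACCC and GC-rich elements, the promoters of the 3 tested members with the smallest p-values over all arrays are shown first. They are RefSeq sequences of GRCm38.p6, from 250 bases before to 50 bases after the start of the gene, written 5′ to 3′ on the strand of the gene. Capitals mark matches to CACCC or its reverse complement GGGTG, and to GGGCGG or its reverse complement CCGCCC. The windows are chr7:66109242-66109541 for Chsy1, chr7:66060086-66060385 for Snrpa1 and chr7:65644648-65644947 for Tarsl2, all on the plus strand.
Chsy1: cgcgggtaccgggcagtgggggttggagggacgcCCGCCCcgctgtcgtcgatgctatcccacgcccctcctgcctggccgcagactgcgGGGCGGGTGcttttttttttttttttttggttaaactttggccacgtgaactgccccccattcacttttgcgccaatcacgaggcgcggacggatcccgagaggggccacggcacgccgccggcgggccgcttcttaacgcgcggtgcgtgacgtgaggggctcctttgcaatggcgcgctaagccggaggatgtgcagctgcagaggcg
Snrpa1: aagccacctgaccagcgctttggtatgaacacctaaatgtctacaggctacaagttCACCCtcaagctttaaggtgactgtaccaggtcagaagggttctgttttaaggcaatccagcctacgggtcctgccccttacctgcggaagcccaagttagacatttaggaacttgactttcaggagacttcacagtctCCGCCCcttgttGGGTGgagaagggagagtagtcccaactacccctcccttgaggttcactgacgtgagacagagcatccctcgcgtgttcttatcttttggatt
Tarsl2: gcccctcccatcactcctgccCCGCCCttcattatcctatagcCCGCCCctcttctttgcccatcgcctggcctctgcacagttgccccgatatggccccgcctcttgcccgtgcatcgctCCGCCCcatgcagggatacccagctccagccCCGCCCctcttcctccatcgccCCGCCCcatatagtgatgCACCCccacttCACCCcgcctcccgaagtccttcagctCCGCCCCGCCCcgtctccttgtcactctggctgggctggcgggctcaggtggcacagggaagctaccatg
The Chsy1 window held 1 match to CACCC and 2 to GGGCGG, and a pair of these overlap in its GGGCGGGTG run. Snrpa1 had 2 matches to CACCC and 1 to GGGCGG. Tarsl2 had 2 matches to CACCC and 7 to GGGCGG, some of which overlap each other.

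Both motifs are common. CACCC on either strand was in 57.5% of all 32851 RefSeq promoters of this length and in 64.7% of those of the tested genes, and GGGCGG was in 35.7% and 61.0%. The 37 members with a promoter in the table had 44 promoters, of which 30 held CACCC and 30 held GGGCGG. Counted by gene, 28 of the 37 held CACCC and 28 held GGGCGG in at least 1 promoter. These matches are a description of the letters and no evidence of binding.

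The arrays did not share 1 scale. The array medians were 5.23 log2 units in KO1 and 5.21 in WT1, between 6.25 and 6.43 in KO2, KO3, WT2 and WT3, and between 4.18 and 4.30 in the gene-level table. The genotypes were therefore compared within 3 replicate sets that share no array: replicate 1, replicates 2 and 3, and replicates 4 and 5. KO3 stood apart, with an interquartile range of 3.10 log2 units, where those of KO1, KO2, WT1, WT2 and WT3 were 3.43 to 3.56. Calls over all arrays are given with and without it, and the differences in replicates 2 and 3 include it unless KO2 is named alone. Of the T cell markers 7 of 7 genes in both tables were above background, with list means of 9.28 to 9.99 log2 units in the knockout arrays and 9.59 to 10.7 in the wild-type arrays. All 7 had a negative fitted difference (median -0.32, with -0.31, -0.67 and 0.02 in the 3 sets in order), 0 of them passing the threshold. Their part in the results below was not tested. B cell markers were above background in both tables for 2 of 5 genes, with Cd79a and Ms4a1 near background, and myeloid markers for 1 of 5, with Lyz2, Cd14 and Adgre1 near background. The B cell list means were 3.83 to 5.68 log2 units in knockout and 3.68 to 5.53 in wild-type arrays, and the myeloid means were 3.61 to 5.07 and 3.54 to 4.77 in the same order. NK cell markers were above background for 1 of 3 genes, erythroid markers for 2 of 3 and stromal and endothelial markers for 4 of 5. Their list means were 3.91 to 5.11, 4.25 to 5.59 and 4.95 to 6.39 log2 units in knockout arrays, and 3.92 to 5.08, 4.12 to 5.40 and 4.79 to 6.17 in wild-type arrays. Ncr1, Klrb1c, Epb42 and Cdh5 were near background, and 0 genes of these lists passed the threshold.

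Klf13 itself was lower in every knockout array. Its log2 signal was 5.41, 6.16, 6.07, 6.21 and 6.46 in KO1 to KO5, against 6.03, 6.95, 6.89, 7.21 and 7.54 in WT1 to WT5. The genotypes did not overlap in any of the 3 sets, with differences of -0.62, -0.81 and -1.05 log2 units in order. Over all 10 arrays its log2 difference was -0.86 ± 0.12 (SE, 5 against 5, limma adjusted p = 0.0127), so that Klf13 fell to 0.549 of its wild-type signal. All 3 of its exon-level probe sets were lower in both exon-level sets. The sources do not say where these probe sets lie relative to the altered part of the gene, so a remaining signal says nothing about the protein. The adjusted p lay between 0.0507 and 0.0689 when KO4, KO5, WT2, WT3 or WT4 was left out, and was 0.9998 with the table in place of the replicate set as block. In bulk RNA, fewer cells of a type and less RNA per cell cannot be told apart.

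Of the 42 members 31 were tested, 8 were too dim in at least 1 table to be tested and 3 were not named in both tables. Over all arrays 0 of the 31 tested members passed an adjusted p of 0.05 (limma, Benjamini-Hochberg over 12485 genes), where 73 genes or 0.585% passed in all. At an unadjusted p under 0.05 there were 7 members, 6 with a negative and 1 with a positive difference, which is 22.6% of the members against 14.9% of all tested genes. The 6 were Snrpa1, Chsy1, Tarsl2, Mcee, Mef2a and Dpy19l3, and the 1 was Pop4. In the same 6 every knockout array lay below each wild-type array of its set, which held for 10.8% of all tested genes. For 0 tested members every knockout array lay above them, against 1.63% of all tested genes.

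Without KO3, 4 of the 31 tested members passed, where 362 genes or 2.9% passed in all. Snrpa1 fell to 0.696 of the wild-type level (-0.52 ± 0.084, SE, 4 against 5, limma adjusted p = 0.00624) and Chsy1 to 0.725 (-0.46 ± 0.095, adjusted p = 0.0235). Pop4 rose 1.58-fold (0.66 ± 0.12, adjusted p = 0.0146) and Mphosph10 rose 1.36-fold (0.44 ± 0.086, adjusted p = 0.0172). The adjusted p of Tarsl2 was 0.0515 in that fit. In the gene-level table, which holds no array of the exon-level sets, 0 of the 31 passed, where 339 genes or 2.72% did. The smallest adjusted p there were 0.0587 for Snrpa1 and 0.0668 for Atp10a. At an unadjusted p under 0.05 in limma there were 9 of the 31 members, beside 1993 of all 12485 tested genes. In the exon-level fit none of the 31 passed (0 of 12485 genes in all, 0%), while 1019 genes and 4 members had an unadjusted p under 0.05 in limma.

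**Figure D1:**
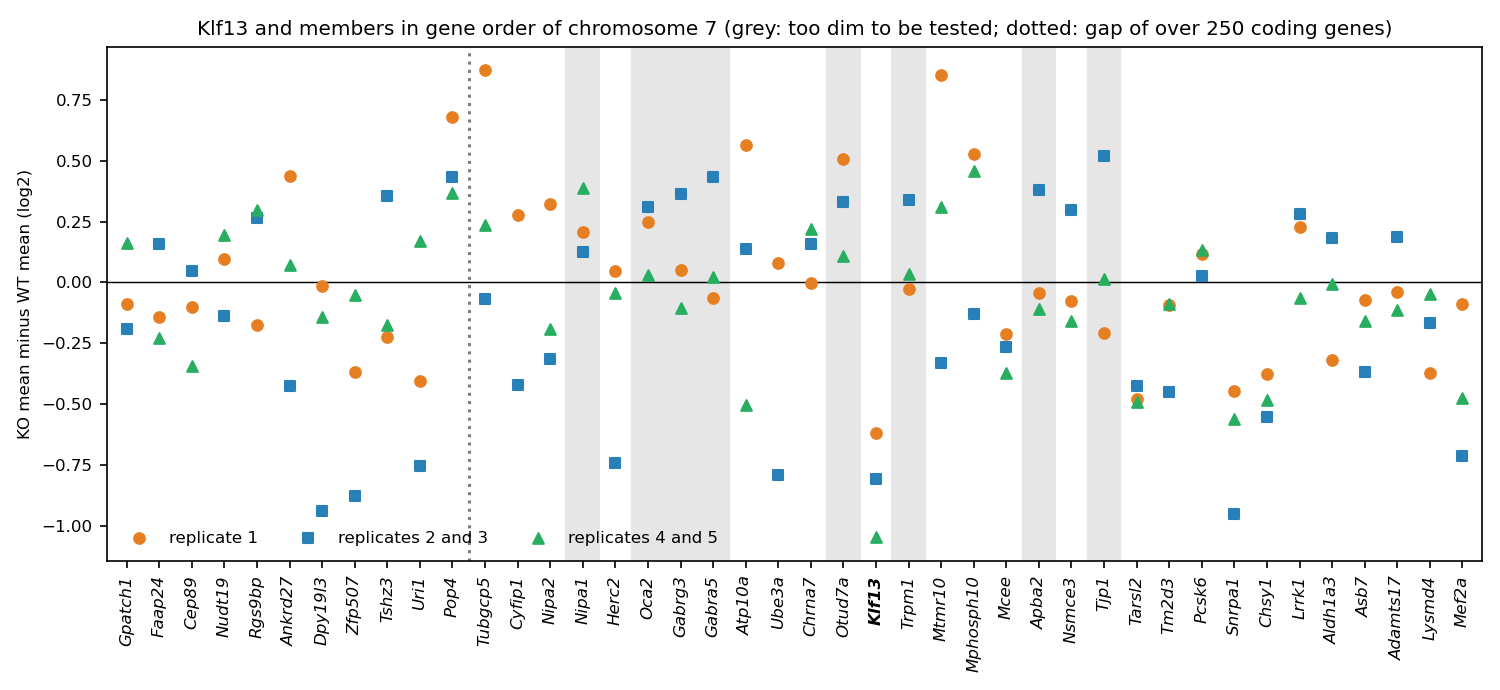
Difference between the knockout and the wild-type mean (log2, vertical axis) of Klf13 and 41 members along chromosome 7 in gene order, with 1 point per replicate set. Klf13 lies between -0.62 and -1.05, Tarsl2, Snrpa1, Chsy1 and Mcee lie below 0 in all 3 sets, and most other members have points on both sides of 0.

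Of the 7 members that act in RNA processing and translation 6 were tested. Over all arrays 0 of these passed and 3 had an unadjusted p under 0.05, against 14.9% of all tested genes. Without KO3 Snrpa1, Pop4 and Mphosph10 passed, against 2.9% of all tested genes. The role groups are small and were drawn up with earlier results known. Snrpa1 encodes the A prime protein of the U2 small nuclear ribonucleoprotein, which takes part in recognising the branch point of introns. Snrpa1 had a log2 signal of 6.85, 8.09, 7.24, 7.05 and 7.12 in KO1 to KO5, against 7.30, 8.58, 8.65, 7.75 and 7.55 in WT1 to WT5. All 5 knockout arrays lay below the wild-type arrays of their set, and KO3 was the farthest below. The difference over all arrays was -0.69 ± 0.17 log2 units (SE, 5 against 5, limma adjusted p = 0.111, 95% interval -1.06 to -0.33), a level of 0.618 of wild type.

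Tarsl2 encodes a threonyl-tRNA synthetase-like enzyme. In KO1 to KO5 it measured 4.13, 5.87, 5.54, 4.00 and 4.32 log2 units, against 4.61, 6.14, 6.12, 4.81 and 4.49 in WT1 to WT5. The knockout arrays were again below the wild-type arrays in each set, and the set differences of -0.48, -0.43 and -0.49 were close to each other. Over all arrays the difference was -0.46 ± 0.12 (SE, 5 against 5, limma adjusted p = 0.158, 0.726 of wild type).

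Pop4, one of the members far from Klf13, encodes a subunit of the RNA-cutting enzymes RNase P and RNase MRP. The log2 signal of Pop4 was 7.10, 8.56, 7.23, 7.25 and 7.41 in KO1 to KO5, against 6.42, 7.37, 7.55, 7.05 and 6.89 in WT1 to WT5. Of the knockout arrays 4 of 5 lay above the wild-type arrays of their set, and KO3 lay below them. The difference was 0.46 ± 0.21 log2 units over all arrays (SE, 5 against 5, limma adjusted p = 0.333).

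Mphosph10, a component of the U3 small nucleolar ribonucleoprotein that processes ribosomal RNA, had the same layout. In KO1 to KO5 it measured 8.04, 9.44, 8.47, 7.77 and 7.65 log2 units, against 7.51, 9.12, 9.04, 7.35 and 7.15 in WT1 to WT5. Again 4 of 5 knockout arrays lay above their wild-type arrays and KO3 below. Over all arrays the difference was 0.24 ± 0.19 (SE, 5 against 5, limma adjusted p = 0.508). The calls of Pop4 and Mphosph10 without KO3 leave out the 1 knockout array that lay on the other side of wild type. In KO2 the Mphosph10 difference of 0.36 included 1 of 12 exon-level probe sets at 3.06, and the median of the 12 was 0.24. Gpatch1, a G-patch protein, had set differences of -0.09, -0.19 and 0.16. In replicate 1 its probe sets ran from -5.86 to 3.84, with 7 of 21 lower and a median of 0.31. Uri1, which binds an RNA polymerase subunit, had set differences of -0.40, -0.75 and 0.17. Snrpn, the imprinted spliceosomal gene, had no probe set that names it alone, and no value is given for it.

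**Figure D2:**
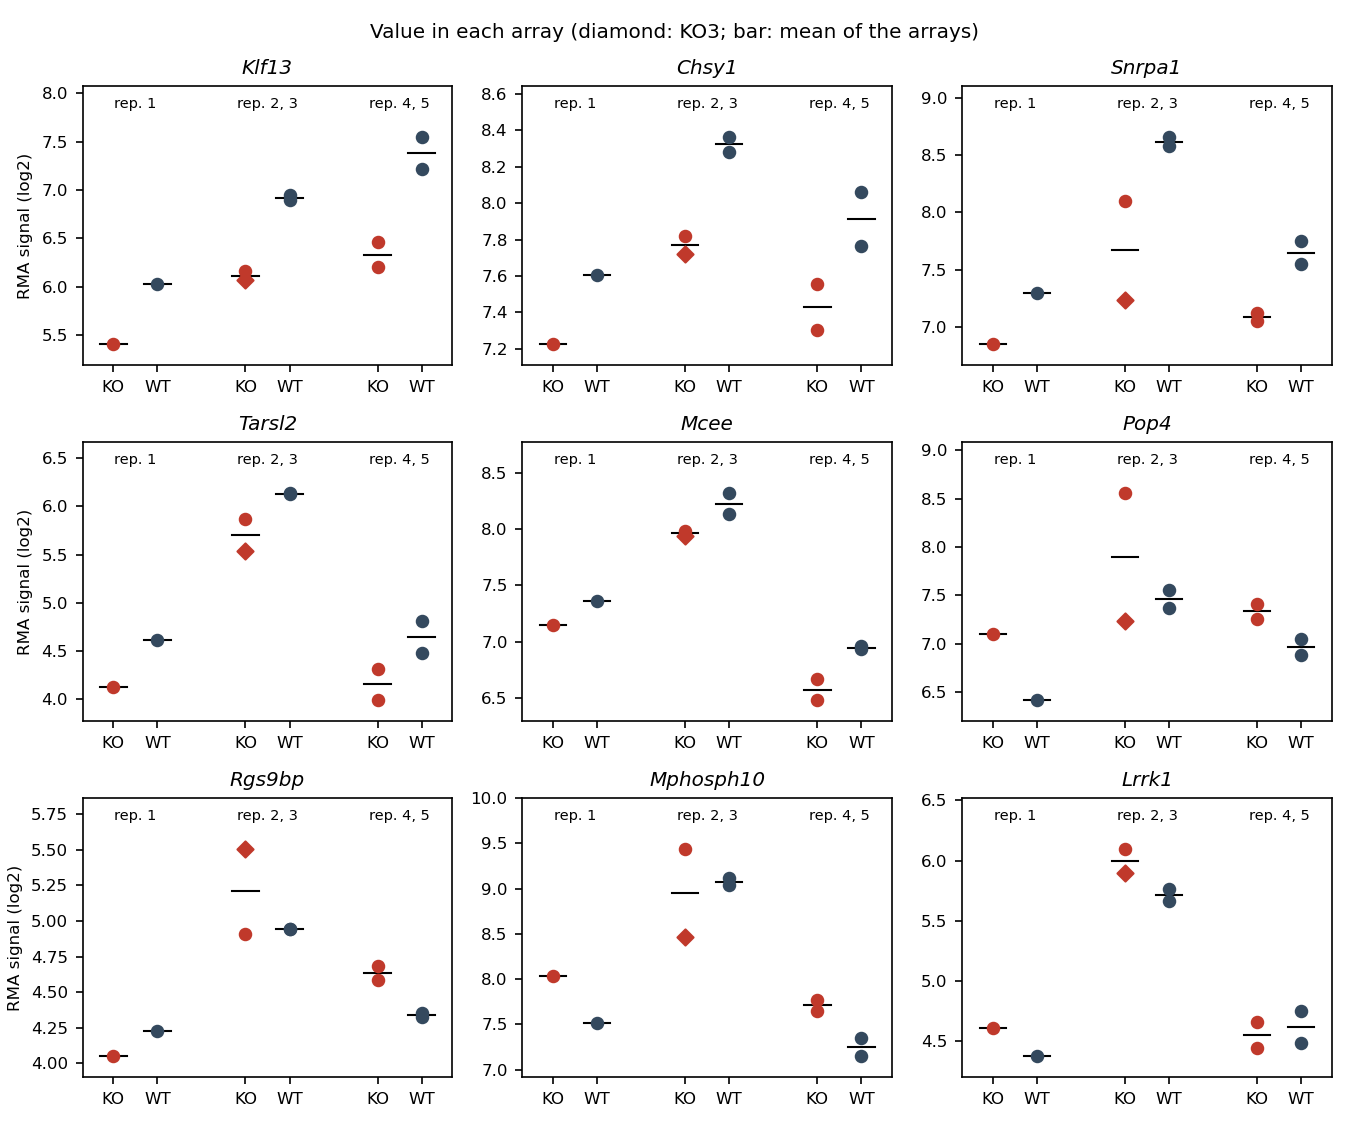
Log2 signal in each array (vertical axis, a scale of its own in each panel) of Klf13 and 8 members, with knockout (red) left of wild type (blue) in each replicate set. In Klf13, Chsy1, Snrpa1, Tarsl2 and Mcee the knockout points lie below the wild-type points in every set, while KO3 (diamond) lies below the wild-type points and KO2 above them in Pop4 and Mphosph10.

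Among the enzymes, secreted and matrix proteins all 7 listed genes were tested. Of these 3 had an unadjusted p under 0.05, all with negative differences, against 14.9% of all tested genes in either direction. Chsy1 encodes a chondroitin sulfate synthase, which builds the sugar chains of proteoglycans. The log2 signal of Chsy1 was 7.23, 7.82, 7.72, 7.56 and 7.30 in KO1 to KO5, against 7.60, 8.36, 8.28, 7.76 and 8.06 in WT1 to WT5. Each knockout array lay below the wild-type arrays of its set, and the mean of KO3 was close to that of KO2. That mean covers 3 probe sets which lay on both sides of wild type in KO3. The difference was -0.49 ± 0.11 log2 units (SE, 5 against 5, limma adjusted p = 0.106, 95% interval -0.74 to -0.24), a level of 0.713 of wild type.

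Mcee encodes methylmalonyl-CoA epimerase, an enzyme of propionate breakdown. Mcee had a log2 signal of 7.15, 7.99, 7.94, 6.49 and 6.67 in KO1 to KO5, against 7.36, 8.13, 8.32, 6.94 and 6.96 in WT1 to WT5. The groups did not overlap within any set, and the set differences were -0.21, -0.26 and -0.37. As for Chsy1, the value of KO3 averages 3 probe sets which lay on both sides of wild type. Over all arrays the difference was -0.30 ± 0.11 (SE, 5 against 5, limma adjusted p = 0.257, 0.814 of wild type). Dpy19l3, a C-mannosyltransferase far from Klf13, had set differences of -0.02, -0.94 and -0.14, so that most of its fitted difference of -0.44 came from replicates 2 and 3, and without KO3 the fitted difference was -0.22. The protease genes Pcsk6 and Adamts17, the retinaldehyde dehydrogenase gene Aldh1a3 and the peroxisomal hydrolase gene Nudt19 had differences of 0.01 to 0.09 over all arrays. Aldh1a3 moved to -0.47 (limma adjusted p = 0.371) with the median in place of the mean of its exon-level probe sets.

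All 6 members that act in transcription, DNA repair and cell division were tested, and 0 passed with or without KO3. Mef2a encodes a MADS-box transcription factor of muscle, neurons and lymphocytes. All 5 knockout arrays lay below the wild-type arrays of their set, with set differences of -0.09, -0.71 and -0.48, and its fitted difference of -0.49 ± 0.21 had a limma adjusted p of 0.304. Without KO3 that difference was -0.27. Zfp507, a zinc-finger gene, had -0.37, -0.88 and -0.05 in the sets, with a fitted difference of -0.44 over all arrays and -0.20 without KO3. Tubgcp5, a component of the gamma-tubulin ring that nucleates microtubules, had 0.87, -0.07 and 0.24, and without KO3 its difference over all arrays was 0.51 (limma adjusted p = 0.0706). Tshz3, a homeobox factor, had -0.23, 0.35 and -0.18. Faap24 of the Fanconi anaemia complex and the centrosomal gene Cep89 had fitted differences of -0.06 and -0.14.

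Of 12 members that act in membranes, trafficking and the cytoskeleton 8 were tested, and 0 passed over all arrays with or without KO3. Atp10a, a phospholipid flippase, had differences of opposite sign in the tables. Its set differences were 0.56, 0.14 and -0.50. The log2 signal was 6.65, 8.06, 7.06, 6.61 and 6.58 in KO1 to KO5, against 6.09, 7.44, 7.41, 7.14 and 7.06 in WT1 to WT5. KO1 and KO2 lay above their wild-type arrays, whereas KO3, KO4 and KO5 lay below theirs. The interaction of genotype and table, the test of that difference, called 0 of 12485 genes (0%) over all arrays, while 658 genes and 1 member, Uri1, had an unadjusted p under 0.05 in limma (0.0571 for Atp10a). Its smallest adjusted p among members was 0.872. Without KO3 it called 121 genes or 0.969%, with Atp10a as the 1 member among them (gene-level minus exon-level difference -1.11 ± 0.16, SE, limma adjusted p = 0.00912). The exon-level table without KO3 called 426 genes or 3.41%, among them 4 members, namely Snrpa1, Pop4, Tubgcp5 and Atp10a.

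Lrrk1, a leucine-rich repeat kinase, and Rgs9bp, a membrane anchor of a retinal G protein regulator, were the other members named for their p among positive differences, beside Pop4 and Mphosph10. Lrrk1 had a log2 signal of 4.61, 6.09, 5.90, 4.45 and 4.66 in KO1 to KO5, against 4.38, 5.77, 5.66, 4.48 and 4.75 in WT1 to WT5. KO1, KO2 and KO3 lay above their wild-type arrays while the gene-level arrays overlapped, and the difference was 0.13 ± 0.12 (SE, 5 against 5, limma adjusted p = 0.563). In KO2 the difference of 0.38 for Lrrk1 included exon-level probe sets at 8.01 and 7.05. Of its 39 probe sets 16 were lower in KO2, and their median was 0.10. In replicates 2 and 3 together 20 of the 39 were lower, with a median of -0.04. Rgs9bp had a log2 signal of 4.05, 4.91, 5.50, 4.59 and 4.69 in KO1 to KO5, against 4.23, 4.95, 4.94, 4.33 and 4.35 in WT1 to WT5. It was near background in the exon-level table, where KO1 and KO2 lay below and KO3 above the wild-type arrays, and its difference was 0.19 ± 0.14 (SE, 5 against 5, limma adjusted p = 0.483). Mtmr10, a myotubularin-related gene, had set differences of 0.85, -0.33 and 0.31, and Ankrd27, an endosomal exchange factor, had 0.44, -0.42 and 0.07. Nipa2, a magnesium transporter, had 0.32, -0.32 and -0.19. Tm2d3 had -0.09, -0.45 and -0.09, and Lysmd4 had -0.37, -0.17 and -0.05.

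In the ubiquitin and SUMO pathway 3 of 5 members were tested and 0 passed. Herc2, a large E3 ubiquitin ligase, had set differences of 0.05, -0.74 and -0.04. In replicate 1 the probe sets of Herc2 reached 10.3, while 54 of 94 were lower and the median was -0.13. Its difference was -1.24 in KO3 alone and between -0.25 and 0.05 in the other 4 knockout arrays, and the fitted difference was -0.30 over all arrays and -0.08 without KO3. Nsmce3, a subunit of the SMC5/6 complex, had set differences of -0.08, 0.30 and -0.16, and Asb7, a cullin-RING adaptor, had -0.07, -0.37 and -0.16. Ube3a, the E3 ligase of Angelman syndrome, was named in the exon-level table only, with differences of 0.08 in replicate 1 and -0.79 in replicates 2 and 3, and its gene value was left out of the tests. All 15 of its probe sets were lower in replicates 2 and 3 and 8 of 15 in KO2 alone, and of the 14 tested 0 passed and 0 had an unadjusted p under 0.05 in limma. The actin regulator Cyfip1 was likewise in that table alone, with 0.28 and -0.42, and 0 of its 33 tested probe sets passed or had an unadjusted p under 0.05.

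Of the channels, receptors and pigment genes 1 of 5 was tested. Chrna7, the alpha 7 subunit of the nicotinic acetylcholine receptor, had set differences of 0.00, 0.16 and 0.22 and a fitted difference of 0.15 ± 0.16 (limma adjusted p = 0.600). The 8 members too dim to be tested were Trpm1, Gabra5, Gabrg3, Oca2, Otud7a, Apba2, Tjp1 and Nipa1. A gene was called near background where its mean lay at or below the 95th percentile of 964 olfactory receptor genes, 4.77 log2 units in the exon-level and 3.64 in the gene-level table. Trpm1, the GABA receptor subunits Gabra5 and Gabrg3, the adaptor Apba2, the tight junction gene Tjp1 and Nipa1 were near background in both tables. Oca2 and Otud7a were near background in the gene-level table only.

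The dim members' differences had a median of 0.01 in replicate 1 and of 0.03 in replicates 4 and 5. In replicates 2 and 3 the median was 0.35, or 0.12 in KO2 alone, and KO3 lay above both wild-type arrays for all 8. How many other genes too dim to be tested did the same was not counted. Across all tested genes too, the difference of KO3 was more positive at lower wild-type levels (r = -0.67). Otud7a, a deubiquitinase gene and the closest coding gene to Klf13, lay above the wild-type arrays of the set in 5 of 5 knockout arrays. Otud7a had a log2 signal of 4.49, 5.60, 5.73, 3.58 and 3.56 in KO1 to KO5, against 3.99, 5.25, 5.42, 3.37 and 3.56 in WT1 to WT5. In KO2 the difference of 0.27 included 1 of its 14 exon-level probe sets at 5.63, while 7 of the 14 were lower than wild type and their median was 0.01. KO5 and WT5 differed by less than 0.01, and the gene-level mean was 0.03 under the limit for testing. In a fit without the filter the difference of Otud7a was 0.28 ± 0.11 (SE, 5 against 5, unadjusted p = 0.0242, limma adjusted p = 0.348).

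**Figure D3:**
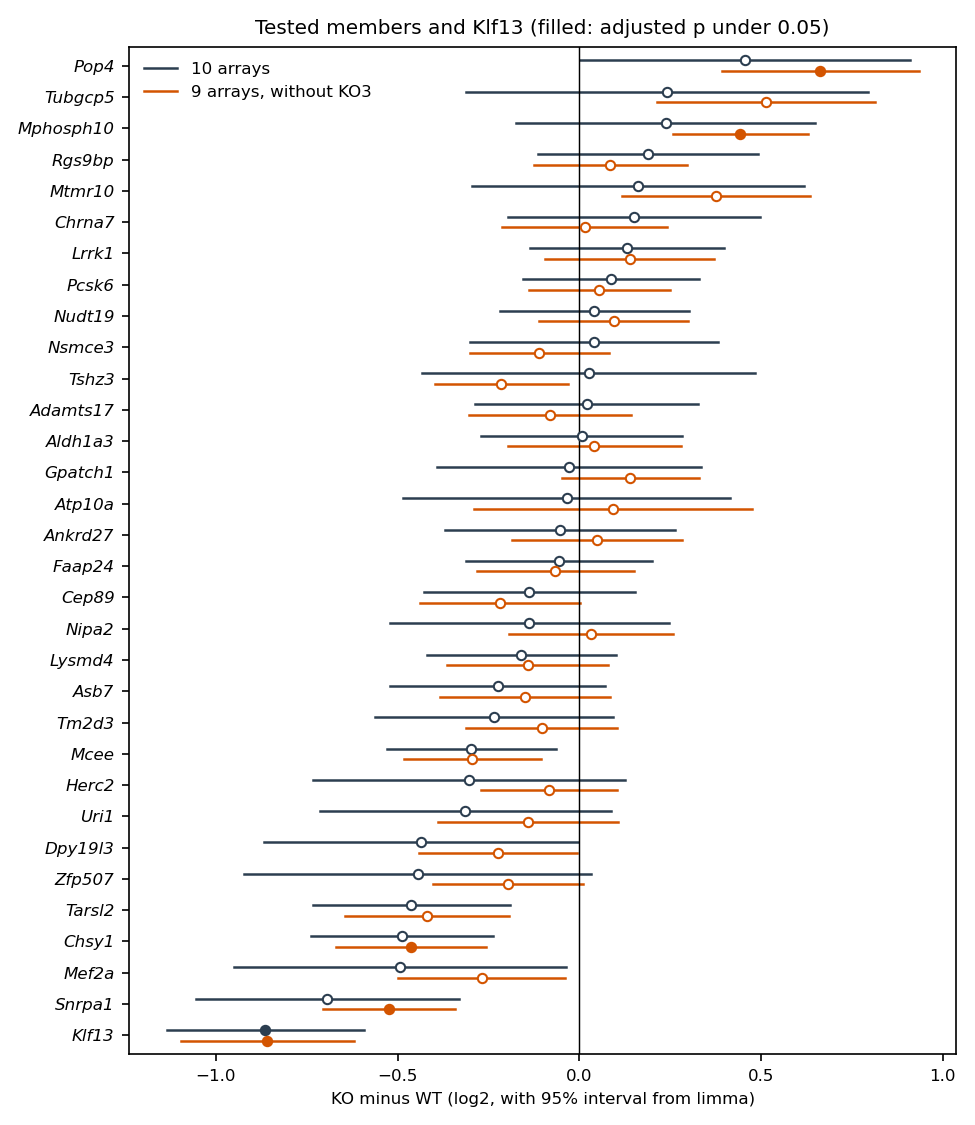
Fitted difference between knockout and wild type (log2, horizontal axis) with its 95% interval from limma for Klf13 and the 31 tested members, over 10 arrays (dark) and over 9 arrays without KO3 (orange), filled where the adjusted p is under 0.05. Over 10 arrays Klf13 alone is filled, and without KO3 Pop4, Mphosph10, Chsy1 and Snrpa1 are filled too.

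The width of the intervals sets what these arrays could have shown. The standard error of the tested members ran from 0.11 to 0.25 log2 units. For 30 of the 31 the 95% interval stayed within 1 log2 unit of 0, that is within a 2-fold change, Snrpa1 being the exception, and for 24 it held 0. For 27 of the 31 the whole interval lay above the fitted difference of Klf13, taken as a fixed value. The 95% interval of Klf13 itself was -1.14 to -0.59, and members were not tested against Klf13.

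The members close to Klf13 and those far from it were also counted apart. Of the 20 tested close members 0 passed over all arrays, as did 0 of the 11 tested far members. From Chrna7 to Mef2a, the stretch that holds Klf13, 16 of 20 members were tested. Of these 8 were lower in each of the 3 sets (50%, against 24.8% of all tested genes) and 1 was higher. Over all arrays, though, 8 of the 16 had a negative and 8 a positive fitted difference. Their median was -0.08, beside -0.10 for all tested genes. Without KO3, 3 of the 16 passed, namely Mphosph10, Snrpa1 and Chsy1, against 2.9% of all tested genes. The next stretch, Tubgcp5 to Snrpn, had 4 of 11 members tested, with 0 lower and 0 higher in each set. Around Klf13, in the window of 50 coding genes that spans the close members, 19 genes were no members, 7 of these were tested and 0 passed over all arrays. Without KO3, 2 of these 7 passed, against 2.9% of all tested genes. Both lay in the stretch from Chrna7 to Mef2a, where 4 genes that are no members were tested and 3 of them were lower in each set. In the gene-level fit 1 of the 4 passed, against 2.72% of all tested genes. Further out, 129 tested genes that are no members lay between Pop4 and Tubgcp5, and 8 of these passed over all arrays (6.2%, 6 lower and 2 higher), against 0.585% of all tested genes. Without KO3 the count was 24 of 129, against 2.9% of all tested genes in that fit.

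The size of the members' differences was near that of all genes. The median difference of the 31 tested members was -0.05 log2 units over all arrays, beside -0.10 for all 12485 tested genes, and the medians of the absolute differences were 0.16 and 0.18. In the sets, in order, the members' medians were -0.08, -0.17 and -0.07, beside -0.02, -0.22 and -0.01 for all genes. Lower in each of the 3 sets were 10 members (32.3%), against 24.8% of all genes, and higher in each set were 2 members (6.45%), against 11.3%.

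The replicate sets ranked the members only loosely alike. Across the 31 tested members the differences in replicate 1 and in replicates 4 and 5 correlated at r = 0.49, those in replicate 1 and replicates 2 and 3 at r = 0.29, and those in replicates 2 and 3 and replicates 4 and 5 at r = 0.29. Over all tested genes these values were 0.30, 0.19 and 0.21. With KO2 alone as the knockout in replicates 2 and 3, the members' r with replicate 1 was 0.67. With replicates 4 and 5 it was 0.38. Over all tested genes the values with KO2 alone were 0.35 and 0.14. The points are genes, which are not independent, and the sets share no array.

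Across the tested members the difference of KO3 from the wild-type arrays of its set correlated with the wild-type level at r = -0.74 (n = 31), and across all tested genes at r = -0.67. In KO2, which is set against the same wild-type arrays, r was -0.16 across the members and -0.56 across all tested genes. The level and the difference share these wild-type arrays.

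**Figure D4:**
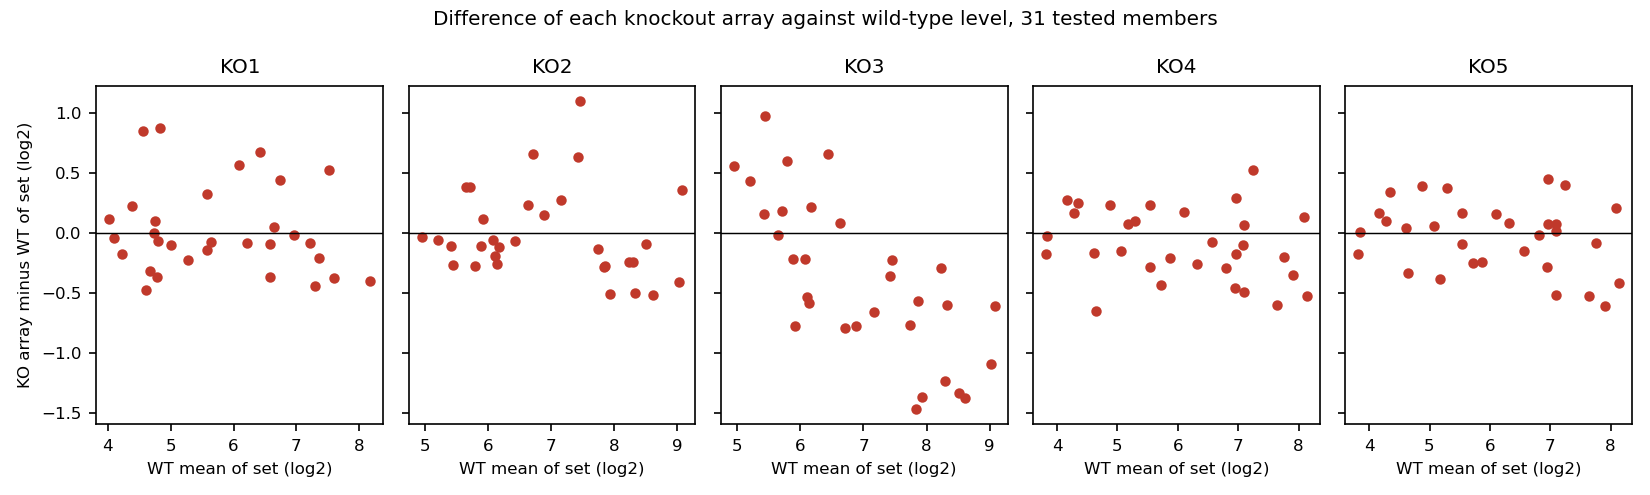
Difference of each knockout array from the wild-type mean of its set (log2, vertical axis) against that mean (log2, horizontal axis), with 1 point for each of the 31 tested members. In KO3 the points slope down from dim to bright members (r = -0.74), and in KO2 r is -0.16.

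The exon-level table also shows whether the probe sets of a member moved together. The members had 712 probe sets there, 539 of them bright enough to be tested, and 0 passed, as did 0 of all 169103. At an unadjusted p under 0.05 there were 33 member probe sets (6.12%), against 4.67% of all. For Snrpa1, 9 of 10 probe sets were lower in KO1 than in WT1, and 10 of 10 were lower in KO2 than the mean of WT2 and WT3. For Chsy1 and Mcee, which have 3 probe sets each, all 3 were lower in both comparisons. For Tarsl2 these counts were 15 and 14 of 19. With KO3 averaged with KO2, 9 of 10 were lower for Snrpa1, 2 of 3 each for Chsy1 and Mcee and 14 of 19 for Tarsl2. The exceptions of Chsy1 and Mcee were 0.47 and 0.51 above wild type in that average. In KO3 alone the exception of Chsy1 measured 8.83 log2 units, against 7.67 and 7.37 in WT2 and WT3. That of Mcee measured 9.61, against 8.33 and 8.12. Pop4 went the other way, with 0 of 8 probe sets lower in KO1, 0 of 8 in KO2 and 1 of 8 in the mean of KO2 and KO3. For Mphosph10, 2 of 12 were lower in KO1 and 3 of 12 in KO2, whereas 10 of 12 were lower once KO3 was averaged with KO2. Probe sets of 1 gene come from the same arrays and are not replicates.

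**Figure D5:**
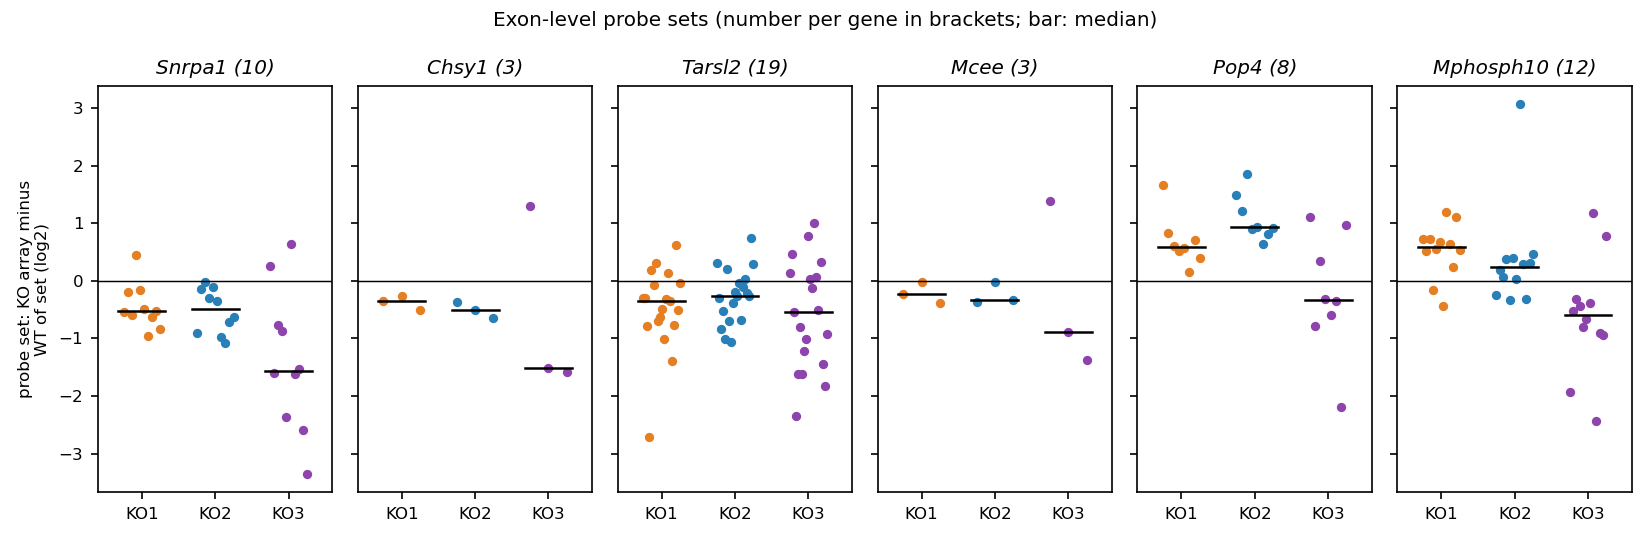
Difference of each exon-level probe set from its wild-type arrays (log2, vertical axis) in KO1, KO2 and KO3 for 6 members, with 1 point per probe set and a bar at the median. In KO1 and KO2 most points of Snrpa1, Chsy1, Tarsl2 and Mcee lie below 0 and most of Pop4 and Mphosph10 above it, and in KO3 the points spread more widely.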

How the data were processed

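The authors deposited log2 signals made with RMA, per the submitters' processing notes, which give no version or settings. There were 241576 exon-level and 35556 gene-level probe sets, in tables normalized apart, and 0 columns were left without a sample. Probe sets naming exactly 1 gene were used (212097 and 21789), with older symbols updated through the RefSeq table of GRCm38.p6 (2742 and 19). Exon-level probe sets were averaged per gene, and of gene-level probe sets the brightest was taken. Tests covered the 12485 of 19048 genes whose mean log2 reached the 30th percentile in both tables.

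Differences were knockout minus wild type, fitted by lmFit and eBayes of limma 3.58.1 in R 4.3.3 with the 3 replicate sets as a fixed block. Tests were 2-sided, with Benjamini-Hochberg adjustment over all tested genes and a threshold of 0.05. Further fits took each table by itself, the interaction between genotype and table, and the exon-level probe sets. The fits were tested on simulated data. The p-values measure the spread between these arrays, and the number of arrays limits the precision. Values in every array are given for Klf13 and for the 4 members per direction with the smallest p over all arrays, and the values of Atp10a and Otud7a in every array were added after they had been seen. The members, the role lists, the markers and the promoter rule were chosen with earlier results of these data known. Of 22 alternatives (blocks, normalization, summary of probe sets, filter, moderation, 10 with an array left out), 3 were chosen after seeing the data. Shared replicate numbers were not taken to pair the arrays, since not every same-numbered pair deviated together: from the means of the table r was 0.392, 0.316, -0.304, -0.241 and -0.241 for replicates 1 to 5. From the means of the replicate set r was -0.424 for replicates 2 and 3, a single value for both by construction. The -0.241 of replicates 4 and 5 is likewise a single value for both.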

Additional observations from a re-analysis of the deposited data

Results flagged for a closer look

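In 8 of 31 tested members the difference of 1 knockout array from its wild-type arrays lay far from the other 4 by Dixon's test. In 7 of the 8 that array was KO3. Chance flags about 1 in 20 groups only where the values are independent and alike in spread. That rate cannot be relied on here, since KO2 and KO3 share their wild-type arrays, as do KO4 and KO5. How often genes that are no members were flagged was not counted, so whether KO3 strayed more often in members was not tested. KO3 lay low for Zfp507 (-1.47, the other 4 between -0.37 and 0.08), Snrpa1 (-1.38, others -0.60 to -0.45), Herc2 (-1.24, others -0.25 to 0.05) and Mphosph10 (-0.61, others 0.36 to 0.53). It lay high for Tshz3 (0.97, others -0.26 to -0.17), Nsmce3 (0.66, others -0.30 to -0.02) and Adamts17 (0.43, others -0.15 to -0.04). KO2 lay low for the protease gene Pcsk6 (-0.11, others 0.10 to 0.17). All values are log2 differences.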

How the results depend on the processing

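Over all arrays 0 members passed under each alternative except without KO3 and without KO3 after quantile normalization, each with 4 (Mphosph10, Snrpa1, Pop4 and Chsy1); leaving out each array in turn gave 0 to 4. The genes called, 73 in the fit reported, were 4 with the table as block, 23 with a replicate block, 31 with the median of exon-level probe sets, 39 with that median and quantile normalization, and 294 without KO3 after quantile normalization (120 higher and 174 lower, against 103 and 259 without that normalization); leaving out arrays gave 12 (KO4) to 362 (KO3). The 339 genes called in the gene-level table became 660 with the replicate block, 938 with the numbers crossed and 517 with trend and robust moderation, and 193 to 529 with an array left out. Members called there, 0 in the fit reported, were 1 with the replicate block or array medians subtracted (Snrpa1), 2 with a 50th percentile filter or trend and robust moderation (Snrpa1 and Atp10a), 6 with the numbers crossed, and 0 to 2 with an array left out. From 0 genes called, the exon-level table came to 48 with the replicate block and 255 without KO3 after quantile normalization (4 of them members), and 0 to 426 with an array left out (0 to 4 members). For the interaction these counts were 82 (1 member), and 0 to 121 (0 to 1), and for probe sets 127 and 0 to 108. The members' median of -0.05 became 0.0294 with quantile normalization, -0.15 with the median of probe sets and -0.14 with the 50th percentile filter, and lay between -0.114 and -0.0437 with an array left out. The median of all genes, -0.10, was -0.03 with quantile normalization and -0.07 with array medians subtracted. The cause of these shifts was not tested. The replicate block called no member over all arrays. Over all arrays the fitted difference kept its sign under each alternative for 20 tested members, among them the 8 chosen by p, and changed sign under at least 1 for 11, among them Atp10a and Aldh1a3. Limits are 5 arrays per genotype, 2 separately normalized tables, the narrow range of KO3 and 11 members left out of the gene tests.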
